A study of Mus musculus with 6 samples.

Results

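The 51 genes described here encode the enzymes of fatty acid oxidation in mitochondria and peroxisomes, the acyl-CoA thioesterases, the long-chain acyl-CoA synthetases, ketone body enzymes, and the PPAR receptors with their coactivators and some of their target genes. They were chosen by name, with earlier results of these data known, so their shares below are not those of an independent choice. All 51 were found among the 53379 genes of the deposited count tables. RNA was sequenced from adult small intestinal stem cells of C57BL/6 mice, isolated from proximal crypts by sorting for high Lgr5-EGFP signal, in 3 control libraries and 3 libraries labelled Klf5-KO. Mice of both groups carried Lgr5-EGFP-IRES-CreERT2, which places EGFP and a tamoxifen-activated Cre under the Lgr5 gene, and the Rosa-tdTomato reporter of recombination, and both received tamoxifen at 1 mg on each of 5 days. The mice labelled Klf5-KO also carried Klf5fl/fl, so Cre could act on Klf5 only in cells that express Lgr5. Descendants of such cells inherit the altered gene. The labels name no sort on tdTomato, and beyond adult they give neither the animals' age nor whether a library came from 1 mouse or from several. P-values therefore measure the spread between these libraries, which may be technical.

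Fatty acids enter oxidation as acyl-CoA esters, which synthetases make and thioesterases split. Long chains cross into mitochondria through the carnitine shuttle and are shortened by rounds of dehydrogenation, hydration, a second dehydrogenation and thiolysis, while peroxisomes shorten very long and branched chains. The receptors PPAR alpha, delta and gamma bind fatty acids and, as heterodimers with RXR receptors, switch on many of these genes. In the intestinal crypt, PPAR delta and oxidation through Cpt1a are known for their part in maintaining Lgr5+ stem cells and in their response to a fatty diet.

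Totals ran from 61563625 to 77666540 counts per library. Klf5, the targeted gene, went against the labels, with 480.3 to 546.5 CPM (counts per 1000000 counts of the TMM-scaled library) in the controls and 876.9 to 918.4 CPM in those labelled Klf5-KO. A count over the whole gene cannot show whether exons were removed, so each direction below is that of the libraries as labelled. Lgr5, the sorting marker, was present in both groups, at 127.8 to 162.8 CPM and 81.2 to 96.8 CPM. In sorted cells measured in bulk, fewer cells of a type and less RNA per cell cannot be told apart. On the second principal component (13.2% of the variance) control replicate 3 stood apart, and its Paneth cell markers summed to 17155 CPM against 1502 and 1766 CPM in the other controls. Counts of called genes are therefore also given without it.

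The genes did not move as a block. Of the 51 genes, 50 were measured well enough to be tested and 1, Acot10, had no read in any library. At an adjusted p under 0.05 (edgeR's quasi-likelihood test, adjusted over all 19339 genes tested), 15 rose and 7 fell in the libraries labelled Klf5-KO, and 28 did not pass. The background is high: 25.8% of all genes tested passed, 13.3% higher and 12.5% lower, against 44% of these 50 genes, 30% higher and 14% lower. The share that fell was thus near the background. Acot3 and Acot5 entered the test only through their counts in the libraries labelled Klf5-KO, so they could hardly have been tested without differing. Of the other 48 tested genes 13 rose (27.1%) and 7 fell (14.6%). The median log2 fold change was 0.11 over the 50 genes, 0.09 over these 48 and −0.01 over all genes tested. Without control replicate 3, 17 rose and 6 fell, and without both control replicate 3 and Klf5-KO replicate 2, 18 rose and 5 fell. In 18 genes (36%) every library labelled Klf5-KO lay above every control, and in 8 (16%) below, against 22.2% and 21% of all genes tested. Without Acot3 and Acot5 the former were 16 (33.3%).

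Counts are given by role, beside 13.3% higher and 12.5% lower over all genes tested, and most roles hold few genes. Of the 11 thioesterase genes tested, 7 rose and 2 fell, and of the 9 other than Acot3 and Acot5, 5 rose and 2 fell. Those that rose include Acot1 to Acot5, which are neighbours on chromosome 12 and share sequence. Among 19 genes of mitochondrial oxidation, from the carnitine shuttle to the enzymes for unsaturated chains, 2 rose (Slc25a20 and Acadl) and 2 fell (Cpt2 and Acadsb), with a median log2 fold change of 0.09. Of 4 genes of peroxisomal oxidation 1 rose, of 4 acyl-CoA synthetases 1 rose, and of 3 ketone body enzymes 2 fell. Of the 9 receptors, coactivators and target genes 4 rose and 1 fell. The summed level of all 51 genes was 2721 to 3022 CPM in control libraries against 2921 to 3053 CPM in those labelled Klf5-KO, so these groups overlapped.

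**Figure D1:**
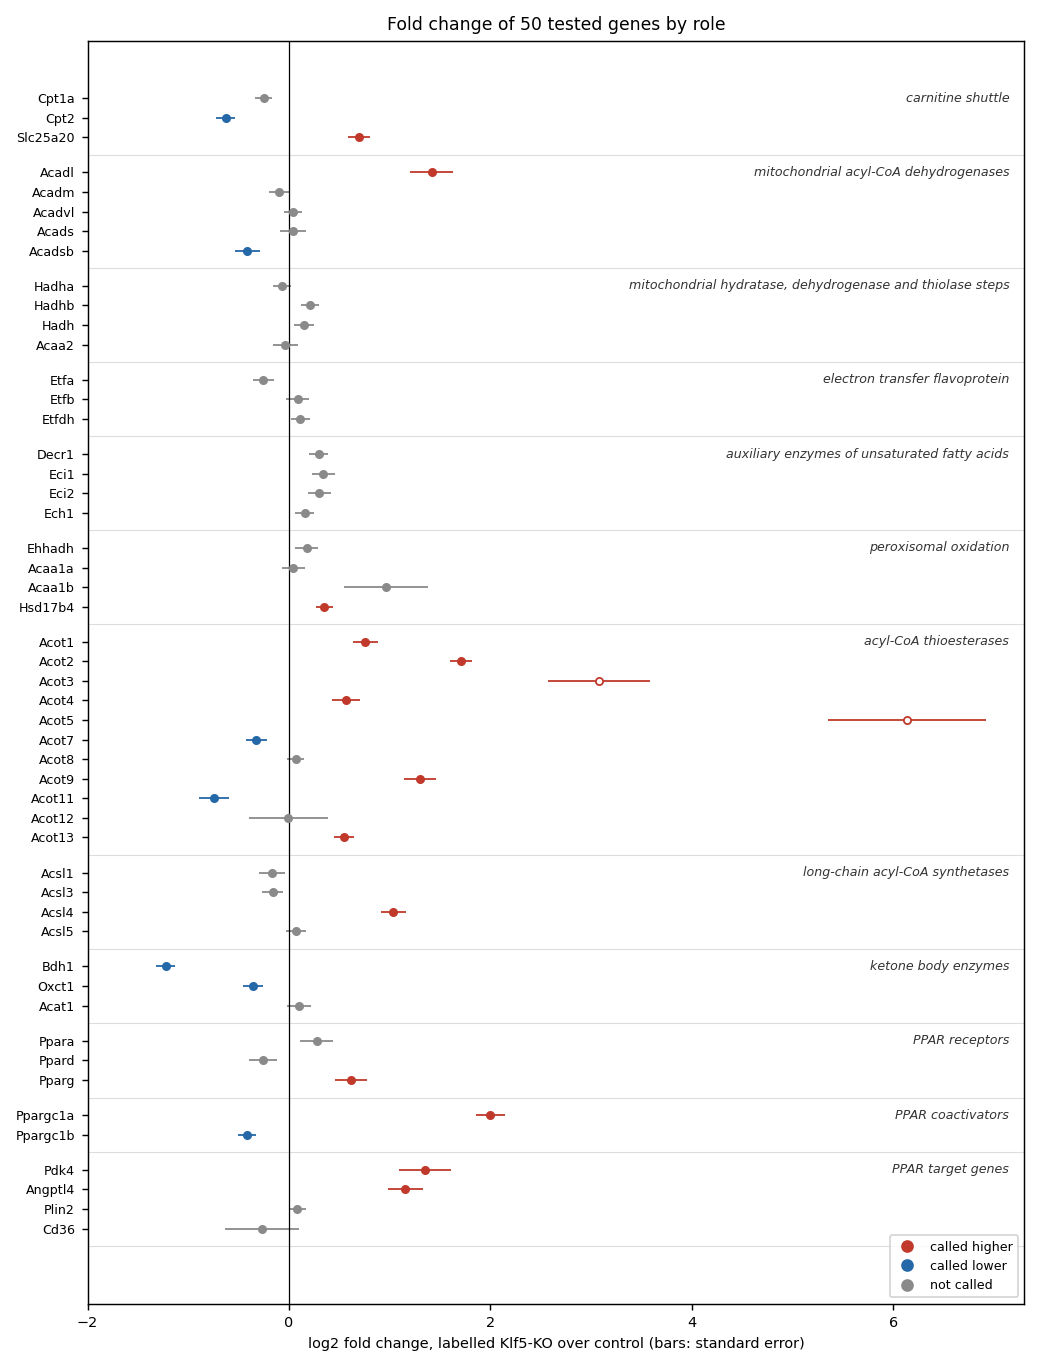
Log2 fold change (libraries labelled Klf5-KO over control, 3 libraries each) of the 50 tested genes by role, with standard errors as bars, red for genes called higher, blue for genes called lower and grey for the rest. Most mitochondrial enzymes lie near 0, while 7 thioesterases lie to the right; the open circles of Acot3 and Acot5 rest on 9 and 3 control reads, so their size depends on the fit.

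Markers of several cell types also differed between the groups, and their part in the results was not tested. Beside the counts below stand the 25.8% of all genes tested that passed, 13.3% higher and 12.5% lower. Of 20 enterocyte markers 10 rose and 1 fell, and their summed level was 2711 to 2918 CPM in control libraries against 3806 to 5590 CPM in those labelled Klf5-KO, lowest there in replicate 2. Of 12 stem cell markers 7 fell and none rose, with sums of 9027 to 12453 CPM and 4817 to 6251 CPM. No marker of either list was at 0. Of 8 goblet cell markers 3 fell, of 10 enteroendocrine markers 7 fell, of 7 tested tuft cell markers 3 rose, and none of 12 Paneth cell or 8 tested leukocyte markers passed. The 10 leukocyte markers summed to 23.6 to 46.1 CPM and 30.6 to 33.6 CPM, of which Cd68 alone made up 16.9 to 30.1 CPM. Those of fibroblasts and muscle summed to at most 1.53 CPM, with 1 higher and 1 lower of 3 tested, and those of endothelium to at most 6.49 CPM, with Vwf lower. The 6 fat cell markers summed to 3.73 to 5.15 CPM and 5.95 to 9.23 CPM, with Cidec higher and Cfd lower. Cidec alone made up 2.55 to 3.47 CPM and 5.54 to 8.85 CPM of these sums. Adipoq, Cfd, Retn and Plin1 each averaged lower in the libraries labelled Klf5-KO, and of these Cfd alone passed. Lep was at 0 in all libraries. Adipoq, Retn and Plin1 had reads in every library, Adipoq at 0.161 to 0.350 CPM in control libraries and 0.0414 to 0.131 CPM in those labelled Klf5-KO.

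Levels are compared between genes only per length, as CPM per kilobase of exon. In the controls the highest was Acaa2, the mitochondrial thiolase, at 67.1 CPM per kilobase, followed by Bdh1 at 52.3, Etfa at 50.7, Eci1 at 45.9 and Hadh at 45.3. Among the receptors Ppard was highest, at 22.2 CPM per kilobase, against 6.41 for Ppara and 2.07 for Pparg. Ppargc1b, at 17.0 CPM per kilobase, stood above Ppargc1a, at 1.58. Acadl averaged 73.7 CPM per kilobase in the libraries labelled Klf5-KO against 27.6 in the controls. It was the highest of these genes only in Klf5-KO replicate 2, at 106 CPM per kilobase, and in replicates 1 and 3, at 58.1 and 56.9, it lay below Acaa2 and Eci1. Ppargc1a reached 6.33 CPM per kilobase there and Ppargc1b 12.8, so their order was the same in both groups.

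The PPAR coactivators moved in opposite directions. Ppargc1a encodes PGC-1 alpha, which drives mitochondrial biogenesis and oxidation together with PPARs and oestrogen-related receptors, and lies on mm10 chromosome 5, 51454250 to 51567726. It was at 8.58, 9.93 and 12.8 CPM in control replicates 1, 2 and 3 and at 43.9, 42.8 and 38.4 CPM in Klf5-KO replicates 1, 2 and 3. Every library labelled Klf5-KO lay at about the same height, far above every control. This was a 4.00-fold rise, or 2.00 on the log2 scale (SE 0.15, edgeR's adjusted p = 3.8e-05). Ppargc1b, the gene of the related coactivator PGC-1 beta, was at 63.8, 68.6 and 71.6 CPM in control libraries against 50.7, 53.9 and 48.2 CPM in those labelled Klf5-KO. It was lower in each of the latter, with a log2 fold change of −0.42 (SE 0.09, adjusted p = 0.0073, edgeR).

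The receptor genes changed less. Ppard, the receptor tied to stem cells in the crypt, was at 89.1, 103.2 and 116.7 CPM in control libraries against 73.8, 102.8 and 81.8 CPM in those labelled Klf5-KO. The groups overlapped through Klf5-KO replicate 2, and Ppard did not pass (log2 fold change −0.26 with SE 0.14, edgeR's adjusted p = 0.21). Ppara, the receptor best known from liver and gut epithelium for inducing fatty acid oxidation, was at 18.4, 28.1 and 27.2 CPM in control libraries against 32.5, 25.3 and 31.3 CPM in those labelled Klf5-KO, again with overlap (log2 fold change 0.27 with SE 0.17, adjusted p = 0.26). Pparg, the receptor known for lipid storage in fat and for differentiation of colonocytes, was at 5.52, 7.26 and 5.55 CPM in control libraries against 9.48, 10.48 and 8.22 CPM in those labelled Klf5-KO. Its groups did not overlap, and it rose by 0.62 on the log2 scale (SE 0.16, adjusted p = 0.020). Leaving out control replicate 1 ended the Pparg call (adjusted p = 0.060), as did leaving out Klf5-KO replicate 1 (0.065) or 2 (0.062).

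Of the 4 target genes, Pdk4 and Angptl4 rose. Pdk4, the kinase that shuts pyruvate dehydrogenase when fat is burned, was at 7.57, 6.06 and 9.89 CPM in control libraries against 26.3, 12.7 and 20.9 CPM in those labelled Klf5-KO. The groups did not overlap, though Klf5-KO replicate 2 lay near the highest control (log2 fold change 1.35 with SE 0.26, adjusted p = 0.0054). Angptl4, a secreted inhibitor of lipoprotein lipase, was at 4.70, 5.55 and 6.76 CPM in control libraries against 12.1, 10.7 and 15.1 CPM in those labelled Klf5-KO. It was higher in each of them, with a log2 fold change of 1.16 (SE 0.18, adjusted p = 0.0018). Plin2, which coats lipid droplets, was at 53.4 ± 1.8 CPM in control libraries against 56.6 ± 4.5 CPM in those labelled Klf5-KO (SD, n = 3 each), and its groups overlapped. Cd36, a fatty acid translocase, was low, at 0.830 to 1.37 CPM and 0.545 to 1.42 CPM. The adjusted p was 0.52 for Plin2 and 0.63 for Cd36 (edgeR).

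**Figure D2:**
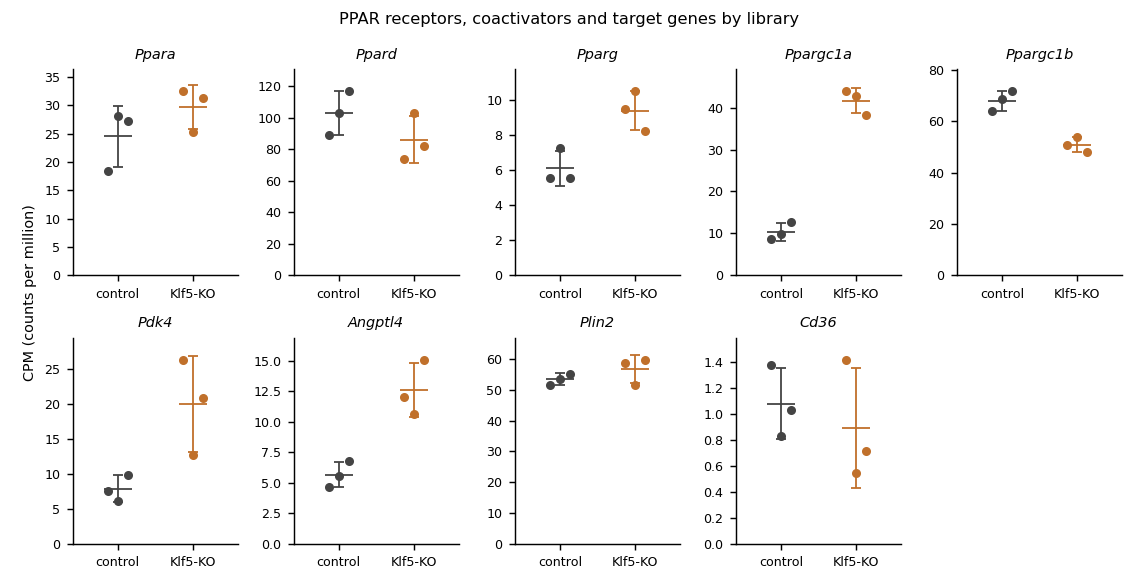
Level in CPM (y axis, from 0) of the PPAR receptors, coactivators and target genes in each library; points are the 3 control and 3 Klf5-KO libraries, and bars give the mean and SD. Ppargc1a goes from 8.58 to 12.8 CPM in the controls to 38.4 to 43.9 CPM, while Ppargc1b is lower in every library labelled Klf5-KO.

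The carnitine shuttle, which carries long acyl chains into the mitochondrion, held changes in both directions. Cpt1a, the rate-limiting transferase of the outer membrane, was at 124.7, 141.1 and 137.5 CPM in control libraries against 107.3, 114.9 and 116.1 CPM in those labelled Klf5-KO. Each of the latter lay below each control, yet the difference did not pass (log2 fold change −0.25 with SE 0.08, adjusted p = 0.052, edgeR). It passed with upper-quartile scaling (adjusted p = 0.041), with the stricter filter of CPM above 1 in 3 libraries (0.041) and with DESeq2 (0.042). Cpt2, the transferase of the inner membrane, was at 43.4, 45.8 and 39.7 CPM in control libraries against 26.1, 26.8 and 30.4 CPM in those labelled Klf5-KO. It was lower in all 3, with a log2 fold change of −0.63 (SE 0.10, adjusted p = 0.0019). Slc25a20, the carrier that exchanges acylcarnitine for carnitine between those steps, went the other way, from 17.6, 19.5 and 21.9 CPM to 30.6, 34.4 and 30.1 CPM (log2 fold change 0.69 with SE 0.11, adjusted p = 0.0020).

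The acyl-CoA dehydrogenases take the first step of each round, and of the 5 on the list Acadl rose, Acadsb fell and 3 did not pass. Acadl, the long-chain enzyme (chromosome 1, 66830839 to 66863277), was at 54.7, 57.3 and 53.9 CPM in control libraries against 116.4, 212.5 and 114.2 CPM in those labelled Klf5-KO. The controls lay close together, and Klf5-KO replicate 2 stood well above the other two. Acadl rose by 1.42 on the log2 scale (SE 0.22, edgeR's adjusted p = 0.0017), and without Klf5-KO replicate 2 it was 1.08. Acadsb, which acts on short branched chains from isoleucine, was at 21.3, 27.7 and 28.1 CPM in control libraries against 18.0, 20.1 and 19.7 CPM in those labelled Klf5-KO, with control replicate 1 near the latter. Its log2 fold change was −0.41 (SE 0.12, adjusted p = 0.034), and the call was lost without control replicate 2 or 3 or any 1 of the libraries labelled Klf5-KO (adjusted p = 0.14, 0.087, 0.14, 0.081 and 0.087). The medium-chain enzyme gene Acadm, the very-long-chain enzyme gene Acadvl and the short-chain enzyme gene Acads had log2 fold changes of −0.10, 0.04 and 0.04, each with overlapping groups.

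None of the genes for the later mitochondrial steps passed. Hadha and Hadhb, the subunits of the trifunctional protein for long chains, were at 194.5 ± 10.7 and 74.9 ± 4.0 CPM in control libraries against 185.0 ± 11.9 and 86.5 ± 6.8 CPM in those labelled Klf5-KO (SD, n = 3 each). Hadh, the dehydrogenase for shorter chains, and Acaa2 had log2 fold changes of 0.15 and −0.04. Etfa, Etfb and Etfdh, which pass electrons to the respiratory chain, had log2 fold changes of −0.25, 0.09 and 0.11. Etfb shares 58.2% of its exon bases with other genes on its strand, and reads there could go uncounted, so its level is uncertain. Eci1, Eci2, Decr1 and Ech1, which bring the double bonds of unsaturated chains into a usable position, had log2 fold changes of 0.34, 0.30, 0.29 and 0.16 with adjusted p = 0.051, 0.077, 0.054 and 0.26 (edgeR). Eci1 and Decr1 lay higher in every library labelled Klf5-KO than in any control, and both passed with DESeq2 (adjusted p = 0.036 and 0.045) and without control replicate 3 (0.018 and 0.034).

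In peroxisomes, Hsd17b4 rose. It encodes the D-bifunctional protein, which carries out the middle steps for branched and very long chains. It was at 103.7, 111.8 and 106.3 CPM in control libraries against 140.7, 125.6 and 143.5 CPM in those labelled Klf5-KO, with no overlap (log2 fold change 0.35 with SE 0.08, adjusted p = 0.016, edgeR). Leaving out control replicate 1 ended the call (adjusted p = 0.056), as did leaving out Klf5-KO replicate 1 (0.056) or 3 (0.070). Ehhadh, the L-bifunctional protein, was at 33.2 to 38.1 CPM and 34.3 to 44.8 CPM, and the thiolase gene Acaa1a at 72.1 to 98.3 CPM and 84.0 to 89.1 CPM, both with overlap. Acaa1b, a second thiolase gene, was low and uneven, at 1.17 to 1.81 CPM in control libraries against 5.11, 1.4 and 2.40 CPM in those labelled Klf5-KO (log2 fold change 0.96 with SE 0.42, adjusted p = 0.12). Of the 50-base words in Acaa1b transcripts 39.6% also occur in other genes, mostly Acaa1a, so reads of this pair could go uncounted.

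**Figure D3:**
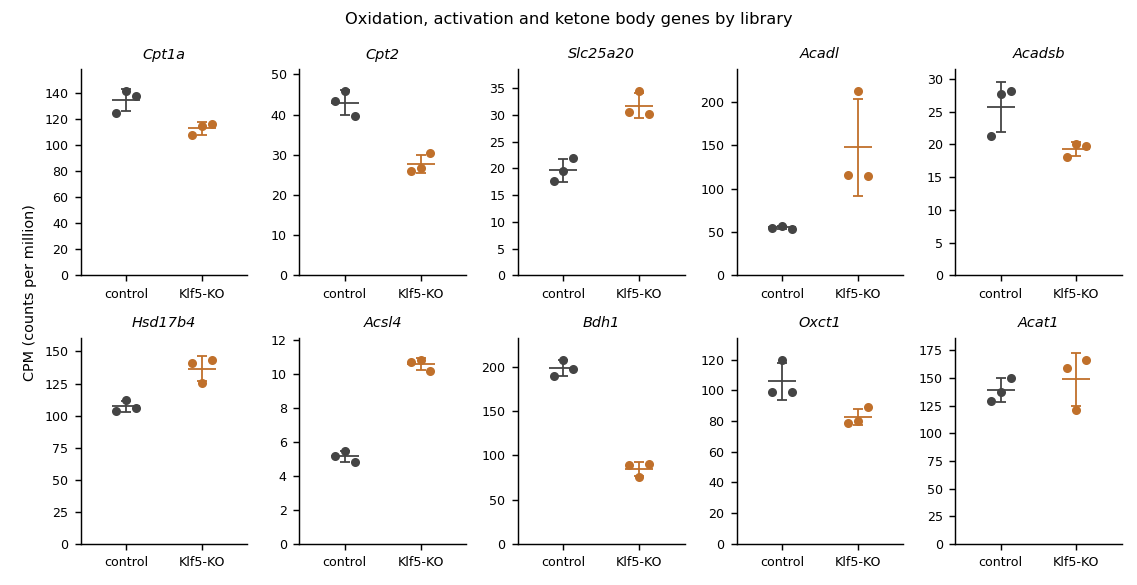
Level in CPM (y axis, from 0) of genes of oxidation, acyl-CoA activation and ketone body metabolism in each library; points are the 3 control and 3 Klf5-KO libraries, and bars give the mean and SD. Cpt2 and Bdh1 are lower and Slc25a20 and Acsl4 higher in every library labelled Klf5-KO, and Acadl is highest in Klf5-KO replicate 2, at 212.5 CPM.

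The thioesterases, which release a free fatty acid and coenzyme A from acyl-CoA, held the most called genes. Of the 9 called, 5 are neighbours: Acot2, Acot1, Acot4, Acot3 and Acot5 lie in this order within 88.2 kb on the plus strand of chromosome 12 (83987861 to 84076020), and all 5 rose, Acot3 and Acot5 with the limit given above. Acot2 encodes a mitochondrial enzyme, Acot1 a cytosolic one, and Acot3, Acot4 and Acot5 encode peroxisomal ones. Because these 5 neighbours rose, the 250 bases before the RefSeq start site of each (GRCm38.p6, the mm10 assembly) are shown, from 5′ to 3′. Capitals mark matches, on either strand, to CCAAT or GGGNGGGG, or to AGGTCANAGGTCA with at most 2 mismatches, the last being a consensus for PPAR and RXR dimers.
Acot2, chr12:83987611-83987860, plus strand: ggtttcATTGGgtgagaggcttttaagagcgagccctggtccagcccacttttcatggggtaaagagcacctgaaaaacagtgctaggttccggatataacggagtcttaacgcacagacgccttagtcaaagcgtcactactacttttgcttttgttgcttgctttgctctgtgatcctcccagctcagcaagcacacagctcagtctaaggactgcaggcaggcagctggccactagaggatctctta
Acot1, chr12:84009252-84009501, plus strand: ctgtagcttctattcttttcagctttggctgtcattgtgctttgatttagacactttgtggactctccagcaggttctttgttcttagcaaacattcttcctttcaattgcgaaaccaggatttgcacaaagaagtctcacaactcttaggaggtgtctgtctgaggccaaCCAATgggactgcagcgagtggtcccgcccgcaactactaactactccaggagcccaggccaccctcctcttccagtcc
Acot4, chr12:84038129-84038378, plus strand: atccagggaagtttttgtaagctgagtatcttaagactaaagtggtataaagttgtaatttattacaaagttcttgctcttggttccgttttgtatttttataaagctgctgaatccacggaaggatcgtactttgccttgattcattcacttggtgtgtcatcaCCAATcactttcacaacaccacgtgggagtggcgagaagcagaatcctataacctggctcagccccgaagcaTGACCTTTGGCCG
Acot3, chr12:84051894-84052143, plus strand: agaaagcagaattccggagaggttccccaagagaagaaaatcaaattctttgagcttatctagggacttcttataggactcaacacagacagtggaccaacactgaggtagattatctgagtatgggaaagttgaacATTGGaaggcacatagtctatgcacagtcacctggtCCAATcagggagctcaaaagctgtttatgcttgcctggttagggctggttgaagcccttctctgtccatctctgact
Acot5, chr12:84069075-84069324, plus strand: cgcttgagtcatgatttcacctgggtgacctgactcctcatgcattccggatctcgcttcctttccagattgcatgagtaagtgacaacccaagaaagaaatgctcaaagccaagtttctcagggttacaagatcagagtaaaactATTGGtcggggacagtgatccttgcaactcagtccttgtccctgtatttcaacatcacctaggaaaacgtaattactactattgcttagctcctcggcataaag

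CCAAT was found before each of the 5 starts, at 74 bases from the start in Acot1, 80 in Acot4, 72 and 108 in Acot3, 99 in Acot5 and 239 in Acot2. It was found in 33.8% of all 32851 RefSeq windows of this length and in 23 of the 44 windows found for the 51 genes. Each window lay before the RefSeq start nearest to the gene's annotated 5′ end. That start was 52905 bases away for Cd36, 32952 for Eci2, 7474 for Acot7, 1618 for Acaa1a and 1431 for Acsl5. Matches in these windows may thus lie far from the start of the gene as counted. AGGTCANAGGTCA without a mismatch occurred in none of the 44 windows and in 0.0335% of all windows. With at most 2 mismatches it occurred in 5 of the 44 (Etfa, Acot4, Acot12, Plin2 and Cd36) and in 3.24% of all windows, and of these 5 genes Acot4 alone was called. GGGNGGGG, a GC-rich pattern of the kind that Kruppel-like factors bind, occurred in 30.8% of all windows and in none of the 5 shown. The 7 genes with no window in the table used were Acaa2, Decr1, Hsd17b4, Acot13, Acat1, Ppargc1b and Angptl4.

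Acot2 changed evenly, at 7.08, 8.48 and 7.63 CPM in control libraries against 25.5, 25.5 and 24.8 CPM in those labelled Klf5-KO. The replicates of each group lay close together and the groups far apart (log2 fold change 1.71 with SE 0.11, adjusted p = 1.4e-05, edgeR). Acot1 was at 28.8, 30.4 and 24.95 CPM in control libraries against 44.7, 55.6 and 41.9 CPM in those labelled Klf5-KO, highest in replicate 2 (log2 fold change 0.76 with SE 0.13, adjusted p = 0.0026). Acot4 was at 5.58, 6.25 and 5.26 CPM in control libraries against 8.03, 9.24 and 8.07 CPM in those labelled Klf5-KO (log2 fold change 0.57 with SE 0.14, adjusted p = 0.015). Acot4 did not pass without both control replicate 3 and Klf5-KO replicate 2 (adjusted p = 0.055).

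Acot3 and Acot5 had few reads in the controls. Acot3 had 4, 4 and 1 reads in control replicates 1, 2 and 3 and 20, 33 and 22 reads in Klf5-KO replicates 1, 2 and 3. Its summed counts, scaled to depth, were 8.57 times higher in the libraries labelled Klf5-KO (exact 95% interval of the ratio 4.28 to 19.5, counting error only). Acot5 had 1, 2 and 0 reads in the controls and 32, 122 and 71 reads in the libraries labelled Klf5-KO, the most in replicate 2. The ratio of its summed counts was 77.1 (exact 95% interval 26.1 to 377, counting error only). Both passed the test across all genes (adjusted p = 0.0026 and 6.8e-04, edgeR). They entered that test only through the libraries labelled Klf5-KO, so these p-values add no support. Both were still low in the libraries labelled Klf5-KO, at 0.292 to 0.514 CPM and 0.467 to 1.90 CPM.

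The genes around the cluster were examined to see how far the rise extended. Acot6, the next thioesterase gene on the same strand and not among the 51, was at 2.69, 3.27 and 2.58 CPM in control libraries against 5.78, 8.22 and 5.40 CPM in those labelled Klf5-KO. It rose by 1.181 on the log2 scale (SE 0.20, adjusted p = 0.0031, edgeR). Of the 15 other genes tested within 200 kb on either side, Acot6 among them, 3 rose, 2 fell and 10 did not pass. The background shares are 13.3% higher and 12.5% lower. Gm47943, between Acot1 and Acot4, was not called, and averaged 0.0888 CPM in control libraries and 0.189 CPM in those labelled Klf5-KO. The nearest tested neighbours outside, Heatr4 before Acot2 and Dnal1 after Acot6, were not called, with log2 fold changes of −0.44 and 0.20. Beyond them Numb and Gm19327 rose, by 0.33 and 0.65 on the log2 scale (adjusted p = 0.014 and 0.032, edgeR). Papln and Gm26571, also beyond Heatr4, fell by 0.80 and 1.01 (adjusted p = 0.0029 and 0.036, edgeR). The Acot genes share sequence: 27.7% of the 50-base words of Acot2, 19.2% of Acot1, 13.4% of Acot4, 21.3% of Acot3 and 22.1% of Acot5 occur in other genes, mostly each other or nearby transcripts. Reads that match several copies could go uncounted, so the levels of these genes are uncertain.

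**Figure D4:**
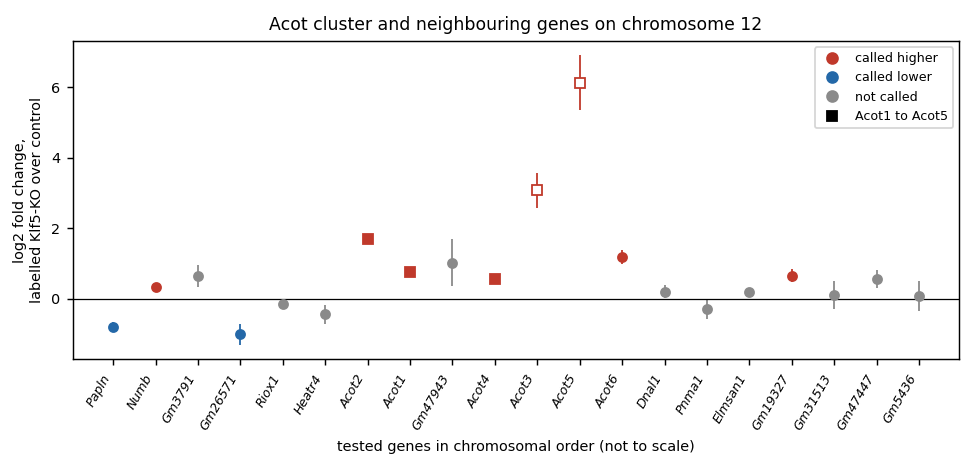
Log2 fold change (libraries labelled Klf5-KO over control) with its standard error for each tested gene within 200 kb of the Acot cluster on chromosome 12, in chromosomal order and not to scale; squares are Acot1 to Acot5, with red for higher, blue for lower and grey for not called. The 5 squares and Acot6 lie above 0 and were called, while Heatr4 and Dnal1 on either side were not. Gm47943, between Acot1 and Acot4, was not called. Farther out, Numb and Gm19327 were called higher and Papln and Gm26571 lower. The open squares of Acot3 and Acot5 rest on 9 and 3 control reads.

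Elsewhere in the genome, Acot9 and Acot13 rose and Acot7 and Acot11 fell. Acot9, a mitochondrial thioesterase gene on the X chromosome, was at 3.06, 2.78 and 3.55 CPM in control libraries against 7.98, 7.09 and 8.07 CPM in those labelled Klf5-KO (log2 fold change 1.30 with SE 0.16, adjusted p = 4.8e-04, edgeR). Acot13, which acts on long chains and associates with mitochondria, went from 18.1, 20.6 and 21.4 CPM to 28.1, 27.9 and 31.7 CPM (log2 fold change 0.55 with SE 0.10, adjusted p = 0.0050). Acot11, whose product also binds lipid through a START domain, went the other way, from 38.1, 34.7 and 40.2 CPM to 21.2, 28.0 and 18.2 CPM. All 3 libraries labelled Klf5-KO lay below the controls, with a log2 fold change of −0.75 (SE 0.15, adjusted p = 0.0064). Of the 50-base words of Acot11 17.3% also occur in Fam151a. Acot7, a cytosolic enzyme best known from brain, was at 65.5, 51.6 and 56.4 CPM and at 46.6, 43.9 and 47.9 CPM, close to overlap (log2 fold change −0.33, adjusted p = 0.043). It did not pass on leaving out control replicate 1 (adjusted p = 0.14) or any 1 of the libraries labelled Klf5-KO (0.11, 0.14 and 0.093). Acot8 and Acot12 did not pass, with overlapping groups. Acot10 had no reads, which allows up to 0.0386 to 0.0487 CPM at the depth of each library, and 43.2% of its 50-base words occur in other genes, Acot9 among them.

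**Figure D5:**
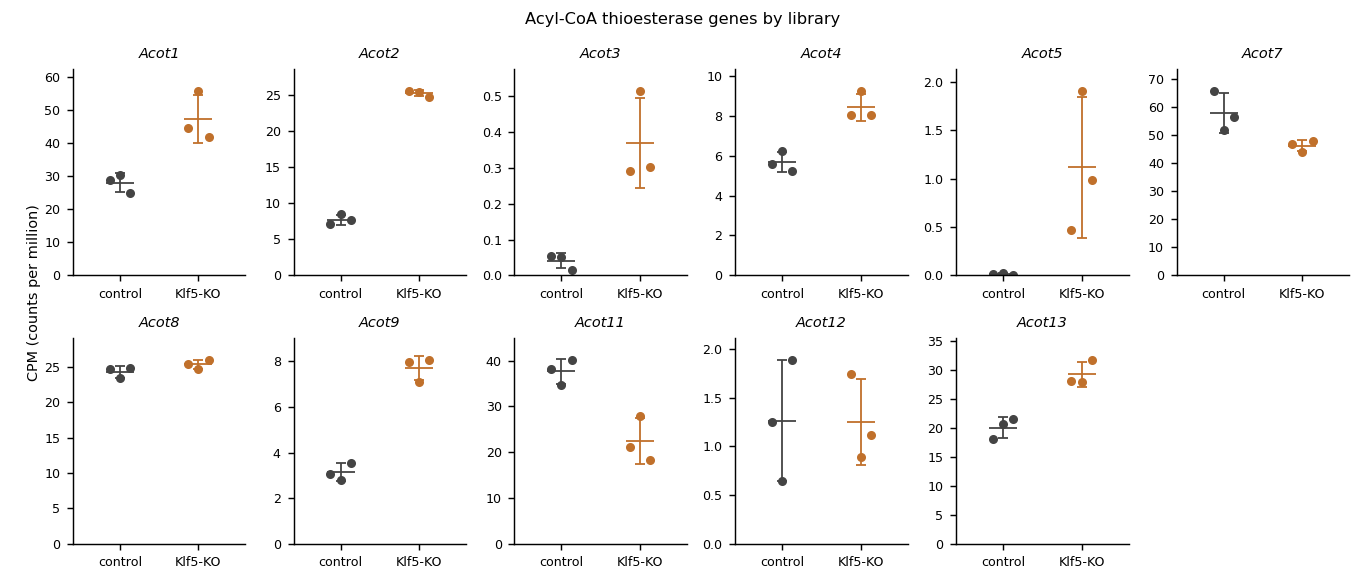
Level in CPM (y axis, from 0) of the 11 tested acyl-CoA thioesterase genes in each library; points are the 3 control and 3 Klf5-KO libraries, and bars give the mean and SD. Acot2 goes from 7.08 to 8.48 CPM in the controls to 24.8 to 25.5 CPM, Acot7 and Acot11 are lower in every library labelled Klf5-KO, and Acot8 and Acot12 overlap.

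Of the long-chain acyl-CoA synthetases, which activate fatty acids, Acsl4 alone passed. Acsl4, which prefers arachidonic acid and other polyunsaturated chains, was at 5.17, 5.47 and 4.84 CPM in control libraries against 10.7, 10.9 and 10.2 CPM in those labelled Klf5-KO. Replicates differed little, and Acsl4 rose by 1.04 on the log2 scale (SE 0.12, edgeR's adjusted p = 4.4e-04). Per kilobase it was the lowest of the 4, at 0.955 CPM in control libraries against 1.96 CPM in those labelled Klf5-KO. Acsl5, the most abundant at 32.1 CPM per kilobase in the controls, Acsl1 and Acsl3 had log2 fold changes of 0.07, −0.17 and −0.16, with overlapping groups.

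The ketone body enzymes on the list fell or did not pass. Bdh1 interconverts acetoacetate and beta-hydroxybutyrate (chromosome 16, 31422280 to 31458901), and it showed the largest fall among the 50 tested genes. It was at 189.7, 208.1 and 198.0 CPM in control libraries against 88.8, 75.8 and 90.2 CPM in those labelled Klf5-KO, far apart (log2 fold change −1.23 with SE 0.09, adjusted p = 4.8e-05, edgeR). Oxct1, which commits ketone bodies to use as fuel, was at 98.7, 119.8 and 98.9 CPM and at 78.7, 80.1 and 88.8 CPM (log2 fold change −0.36 with SE 0.10, adjusted p = 0.029). Oxct1 did not pass on leaving out control replicate 2 (adjusted p = 0.094) or any 1 of the libraries labelled Klf5-KO (0.11, 0.096 and 0.0502). Acat1, the mitochondrial acetoacetyl-CoA thiolase, overlapped between the groups, at 129.3 to 150.4 CPM and 121.5 to 166.5 CPM.

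The 250 bases before the start are shown for Ppargc1a and Bdh1, the largest called rise and fall outside the thioesterases. They are also shown for Acadl, which rose, and Cpt2, which fell, whose windows both hold GGGNGGGG. Binding to this pattern was not tested. Capitals mark the same patterns as above (GRCm38.p6).
Ppargc1a, chr5:51567726-51567975, minus strand: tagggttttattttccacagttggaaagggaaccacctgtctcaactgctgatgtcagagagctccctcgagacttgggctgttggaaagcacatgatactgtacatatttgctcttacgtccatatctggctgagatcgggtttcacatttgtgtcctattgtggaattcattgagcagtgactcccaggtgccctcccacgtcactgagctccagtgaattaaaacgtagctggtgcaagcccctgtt
Bdh1, chr16:31422047-31422296, plus strand: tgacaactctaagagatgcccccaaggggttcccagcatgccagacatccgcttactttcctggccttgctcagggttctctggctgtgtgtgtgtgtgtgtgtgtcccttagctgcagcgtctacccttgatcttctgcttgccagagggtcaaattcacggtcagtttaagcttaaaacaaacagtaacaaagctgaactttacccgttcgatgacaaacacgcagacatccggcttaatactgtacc
Acadl, chr1:66863310-66863559, minus strand: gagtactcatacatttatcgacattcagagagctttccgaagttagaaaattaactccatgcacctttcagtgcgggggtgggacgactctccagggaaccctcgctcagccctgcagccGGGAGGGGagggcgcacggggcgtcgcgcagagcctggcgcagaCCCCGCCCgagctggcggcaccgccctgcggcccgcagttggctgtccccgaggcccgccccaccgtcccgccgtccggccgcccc
Cpt2, chr4:107923590-107923839, minus strand: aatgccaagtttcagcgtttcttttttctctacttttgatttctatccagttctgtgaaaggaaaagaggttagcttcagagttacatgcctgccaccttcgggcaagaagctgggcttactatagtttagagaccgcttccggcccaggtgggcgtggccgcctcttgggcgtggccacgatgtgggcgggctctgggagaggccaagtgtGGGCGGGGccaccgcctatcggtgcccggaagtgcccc

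None of the patterns was found before Ppargc1a or Bdh1. GGGNGGGG lay 122 and 78 bases before the start of Acadl and 30 bases before that of Cpt2. It was found in 2 of the 12 windows of genes that rose and in 3 of the 6 of genes that fell. Of genes that did not pass, 12 of the 25 windows held it. The 3 include Acot7, whose window lay far from its annotated 5′ end, as given above.

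Other genes of the same pathways, 99 in 5 lists, were described in the same way. Of the 90 tested, 16 rose and 11 fell, with a median log2 fold change of −0.07. These shares, 17.8% and 12.2%, lay near the 13.3% and 12.5% of all genes tested. Of 18 other mitochondrial genes 1 rose and 3 fell. The gene that rose was Acad11, a further acyl-CoA dehydrogenase, named after its value was seen (log2 fold change 0.59, adjusted p = 0.022). Among those that fell, Acss1, which makes acetyl-CoA from acetate, went from 106.5 ± 7.7 to 22.1 ± 2.6 CPM (log2 fold change −2.27, SD with n = 3 each, adjusted p = 4.9e-06, edgeR). Acsm3, a medium-chain acyl-CoA synthetase gene, and Cpt1c, a brain-type relative of Cpt1a, fell by 0.59 and 0.75 on the log2 scale. Of 20 tested peroxisomal genes 4 rose and 1 fell. Those with the smallest p were Crot, which makes carnitine esters of medium chains, Amacr, which prepares branched chains, and Scp2, a sterol carrier and thiolase, with log2 fold changes of 1.06, 0.79 and 0.47.

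Of 8 tested ketone body genes beside those above 2 rose, among them the monocarboxylate transporter gene Slc16a7 (log2 fold change 1.90). Of 19 partners and corepressors of PPARs 4 rose and 2 fell. Creb3l3, a hepatic and intestinal transcription factor that works with PPAR alpha, went from 15.7 ± 5.8 to 65.8 ± 11.8 CPM (log2 fold change 2.07, SD with n = 3 each, adjusted p = 5.0e-04, edgeR). Rxra, the dimer partner of the PPARs, fell by 0.68 on the log2 scale, and the coactivator gene Ncoa1 rose by 0.54. Of 25 genes tested on the list of other target genes, which also holds relatives of Pdk4, 5 rose and 5 fell. The kinase gene Pdk1, such a relative, fell by 0.63 on the log2 scale. Fabp2, the intestinal fatty acid binding protein, and the pantetheinase gene Vnn1 rose by 1.28 and 1.41.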

How the data were processed

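RNA libraries of sorted intestinal stem cells, 3 control and 3 labelled Klf5-KO, were compared. The libraries were stranded and depleted of ribosomal RNA, per the labels' protocols. The deposited values are raw read counts for each gene. The submitters' processing notes name STAR 2.5.2a, the mm10 build and DESeq2 1.18.1. The authors' counting used featureCounts 1.4.3-p1, the GENCODE vM16 annotation and the reverse strand, per the file headers, which show no option for reads mapped to several places or genes.

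Gene IDs were given symbols from GENCODE vM21, which matched 53274 of 53379. The test was that of edgeR 4.0.16 (R 4.3.3): filterByExpr (about 0.144 CPM in 3 libraries) left 19339 genes, scaling used TMM, the quasi-likelihood test had the group as its only term, and the Benjamini-Hochberg adjustment covered every gene tested, with a threshold of 0.05. The SE is the log2 fold change over the square root of F. The script was tested on simulated data. Every pair of libraries differed beyond sampling noise (lowest chi-square over its degrees of freedom, 44.8). Counts of 3 served as the floor for a gene without reads, and intervals and floors cover counting error only.

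The members and lists were chosen with earlier results of these data known. By rule, values in every library are given for called members that averaged 1 CPM or more and for the PPAR receptors, coactivators and Cpt1a; for the other pathway lists up to 3 called genes with the smallest adjusted p are named, except that some genes of these lists are not reported here. Acot3, Acot5, Acot6 and other genes near the cluster, and 50-base words shared between GENCODE vM21 transcripts, were added after values were seen. Promoter windows come from RefSeq. Other scalings, filters, tests (DESeq2 1.42.0, limma-voom with limma 3.58.1), a replicate block, stricter thresholds and leaving out libraries were tried. Same-numbered libraries of the groups did not deviate together (correlations −0.00947, 0.00552 and −0.0408), so numbers were not taken as pairs.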

Additional observations from a re-analysis of the deposited data

How the results depend on the processing

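Of the 22 called genes, 16 stayed called in every other fit that tested them and 6 (Acadsb, Hsd17b4, Acot4, Acot7, Oxct1 and Pparg) were lost in at least 1; Acot3 and Acot5 were not tested where CPM above 1 was required. No called member changed sign, while 8 members that did not pass (Acaa1a, Acaa2, Acadm, Acads, Acadvl, Acot12, Acsl5 and Cd36) did so in at least 1 fit. The number of members higher ran from 13 to 17 when 1 library was left out, and the number lower from 4 to 6, with 4 without Klf5-KO replicate 1 and 4 without Klf5-KO replicate 2; fewer libraries entered these fits. At an adjusted p under 0.01, 12 rose and 4 fell. With an adjusted p under 0.05 and at least 1.5-fold required, 12 rose and 3 fell. The median over the members ran from 0.085 to 0.21 when 1 library was left out, highest without Klf5-KO replicate 2 (0.21), and was 0.21 without both control replicate 3 and Klf5-KO replicate 2, an alternative added after seeing the data; the cause was not tested. Among the other pathway genes, 10 to 18 rose and 7 to 13 fell when 1 library was left out, with 10 higher and 7 lower without Klf5-KO replicate 1 and 10 higher without Klf5-KO replicate 3. At an adjusted p under 0.01, 9 of these rose and 5 fell. With an adjusted p under 0.05 and at least 1.5-fold required, 10 of these rose and 8 fell. With the replicate block, 16 members rose and 7 fell, and Eci2 passed (adjusted p = 0.038). With no low-count filter 19 members rose, and with DESeq2 18. Depth limits the thioesterase genes Acot3 and Acot5, with 9 and 3 control reads in all.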
